A study of Mus musculus with 4 samples.

Results

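The 8 genes described here handle iron in mouse cells and carry, or belong to, the best known case of translation controlled by a metabolite. They are Fth1 and Ftl1 (ferritin heavy and light chain), Tfrc (transferrin receptor), Slc11a2 (the metal transporter DMT1), Slc40a1 (the iron exporter ferroportin), Aco1 and Ireb2 (the iron regulatory proteins) and Hmox1 (heme oxygenase 1). They were chosen by symbol from the 55573 genes of the ribosome profiling table, of which 21900 are protein-coding, and all 8 were found and passed the filter of a mean of at least 1 RPKM (reads per kilobase of gene and of library size), as did 11363 genes in all.

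The libraries hold ribosome-protected fragments from primary myoblasts, the proliferating muscle precursor cells that grow from digested hind-limb muscle of 3-week-old mice. There were 2 WT libraries and 2 libraries labelled eIF5A-KO, all from cells collected on day 2 of proliferation. The cells of both groups grew in DMEM with 10% fetal bovine serum, received FGF at 10 ug/ml and were treated before lysis with cycloheximide at 100 ug/ml, a drug that arrests ribosomes on the mRNA. The study describes the knockout as a floxed eIF5A allele removed by tamoxifen through Cre driven from Pax7, which acts in satellite cells and their progeny and not in other cells of the muscle, and the WT mice as littermates. eIF5A is a translation factor that carries hypusine, a residue made from spermidine. The labels do not say whether the libraries of a group came from separate animals or cultures, so the p-values measure the spread between these libraries, which may be technical.

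Iron sets the translation or the stability of some of these mRNAs, those of ferritin, ferroportin and the transferrin receptor among them, through a short hairpin, the iron-responsive element. When iron is scarce, the iron regulatory proteins bind it: in the 5′ UTR of ferritin and ferroportin mRNA they hold back initiation, and in the 3′ UTR of transferrin receptor mRNA they protect the message from decay. When iron is plentiful, Aco1 takes up an iron-sulfur cluster and becomes the cytosolic aconitase, Ireb2 is degraded, ferritin is made and the receptor is lost. Hmox1 releases iron from heme and is transcribed when heme or oxidants are high. In muscle, iron also goes into the heme of myoglobin and of the respiratory chain.

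The hairpins themselves are shown first, since they set the role that the mRNAs carrying them have in this system. Annotated UTRs in GENCODE M21 (build GRCm38) were searched for a C, then 5 bases, then the loop CAGTGN, then 5 bases that pair with the first 5 (A with T, G with C or T). Only the strand of the mRNA was searched, and the transcripts are written as DNA. Each line below gives the 29 bases around a match from 5′ to 3′, with the loop in capitals.
Fth1, 5′ UTR, chr19:9982732-9982760, plus strand: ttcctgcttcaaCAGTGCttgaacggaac
Ftl1, 5′ UTR, chr7:45459779-45459807, minus strand: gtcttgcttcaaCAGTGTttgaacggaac
Slc40a1, 5′ UTR, chr1:45925465-45925493, minus strand: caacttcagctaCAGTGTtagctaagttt
Tfrc, 3′ UTR, chr16:32631219-32631247, plus strand: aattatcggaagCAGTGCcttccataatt
Tfrc, 3′ UTR, chr16:32631598-32631626, plus strand: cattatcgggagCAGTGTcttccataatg
Tfrc, 3′ UTR, chr16:32631663-32631691, plus strand: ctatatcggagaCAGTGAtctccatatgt
Tfrc, 3′ UTR, chr16:32631710-32631738, plus strand: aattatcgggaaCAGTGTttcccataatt

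The loop lay 120 bases before the start codon in Fth1, 158 in Ftl1 and 212 in Slc40a1, whereas the 4 loops of Tfrc lay 897 to 1388 bases after the last sense codon. No UTR of Slc11a2, Aco1, Ireb2 or Hmox1 held these letters, which says only that this strict form of the hairpin was not in the annotated UTRs. The pattern was found in the 5′ UTR of 31 of 20886 genes (0.148%) and in the 3′ UTR of 129 of 21640 (0.596%), while CAGTG alone stood in 33.8% of the 5′ UTRs and 67.2% of the 3′ UTRs by gene.

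**Figure D1:**
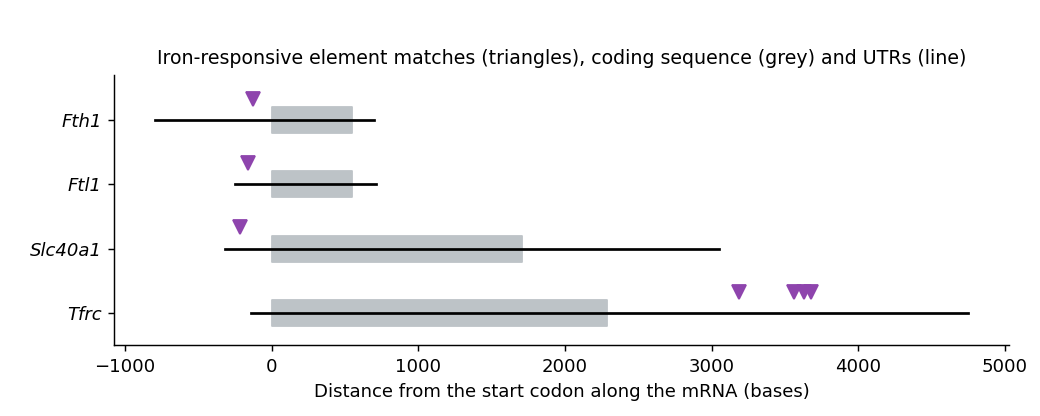
Map of the 4 mRNAs that held the hairpin, with the distance in bases from the start codon on the horizontal axis, the coding sequence as a grey bar, the UTRs as a line and each match as a triangle. The single matches of Fth1, Ftl1 and Slc40a1 lie before the start codon, and the 4 matches of Tfrc lie after the stop codon.

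Before the iron genes, the libraries were checked for depth and for their labels. Each library held between 642429 and 704006 recovered reads, of which 33.9% to 41.5% fell on protein-coding genes in the WT libraries and 59.2% to 65.4% in those labelled eIF5A-KO. The library sizes implied by the RPKM differed more, at 602863 and 471136 for WT, against 906990 and 807705 under the eIF5A-KO label. They lay below the recovered reads in WT and above them under the eIF5A-KO label, so reads and RPKM differ in their folds between groups. The targeted gene Eif5a stood at 34.9 and 65.2 RPKM in the WT libraries and at 60.3 and 59.4 RPKM under the eIF5A-KO label (log2 fold change 0.32, SE 0.48, limma adjusted p = 0.839), so its reads did not mark the knockout and every direction below rests on the labels. The summed signal of 9 myoblast markers reached 255 and 207 RPKM for WT, compared with 118 and 132 RPKM under the eIF5A-KO label, and the lists for other cells also had signal in every library. Myod1, one of the myoblast markers, had 139.9 and 117.5 RPKM for WT, compared with 48.6 and 79.8 RPKM under the eIF5A-KO label. For 10 fibroblast markers the sum was 503 and 340 RPKM for WT, compared with 866 and 398 RPKM under the eIF5A-KO label. Dcn alone held 240 and 126 RPKM of it for WT, and 460 and 171 RPKM under the eIF5A-KO label. Of these 10 markers, 7 had a log2 fold change above 0 and 3 below. For 8 endothelial markers the sum ran from 192 to 230 RPKM. For 12 macrophage and immune markers it came to 50.3 and 80.5 RPKM for WT, compared with 68.6 and 53.1 RPKM under the eIF5A-KO label, with Itgam and Aif1 at 0 in all 4. In ribosome-protected fragments of bulk samples, fewer cells of a type, less mRNA per cell and less translation of each mRNA cannot be told apart. The part of the makeup of the cultures in the values below was not tested.

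At the ribosome the 8 genes covered a wide range of levels. Per kilobase of gene, Fth1 was highest with a mean of 1303 RPKM over the 4 libraries, followed by Hmox1 with 459 RPKM and Ftl1 with 48.6 RPKM. Tfrc (9.28 RPKM), Aco1 (8.67), Slc11a2 (6.15), Ireb2 (4.99) and Slc40a1 (1.43) came after them. The ranges over the 4 libraries did not overlap between Fth1, Hmox1, Ftl1 and Tfrc, nor between Ireb2 and Slc40a1, whereas the neighbours Tfrc and Aco1, Aco1 and Slc11a2, and Slc11a2 and Ireb2 overlapped and were not separated by this order. The deposited lengths count whole gene models, between 1.69 (Aco1) and 6.35 (Fth1) times the longest coding sequence. Per kilobase of coding sequence 5 of the 8 genes kept their place, and Slc11a2 and Ireb2 moved ahead of Aco1.

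**Figure D2:**
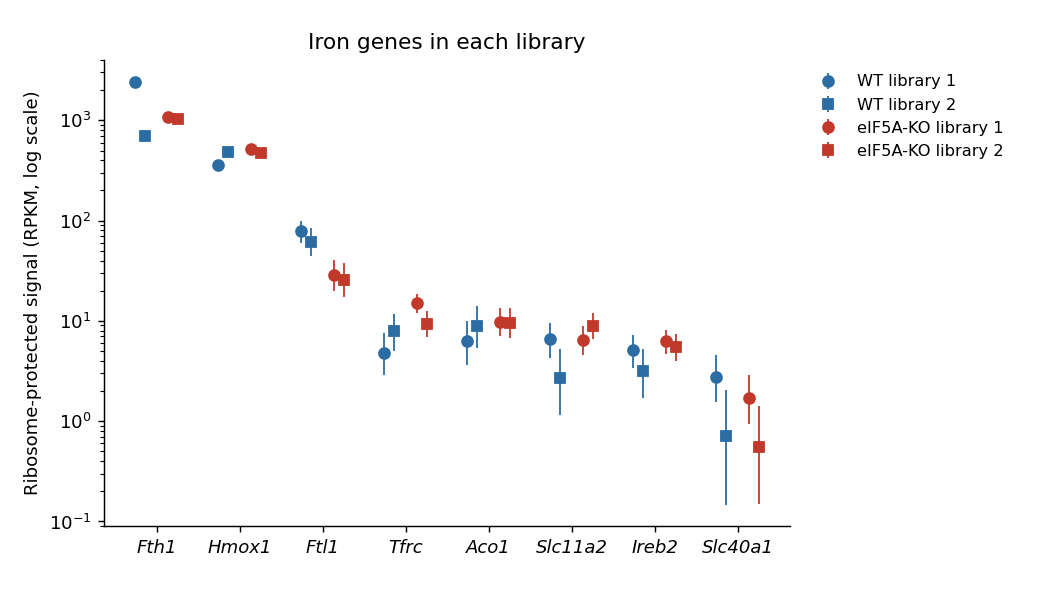
Ribosome-protected signal of the 8 iron genes in each library, in RPKM on a log axis, ordered by mean level; blue is WT, red is the libraries labelled eIF5A-KO, circles are library 1, squares are library 2, and bars are exact 95% Poisson intervals of the reads. Fth1 and Hmox1 lie far above the others, the WT libraries of Fth1 lie on either side of the libraries labelled eIF5A-KO, and those of Ftl1 lie above them.

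Iron storage was read first. Fth1 (ENSMUSG00000024661, chr19:9980598-9985098, plus strand) codes for the ferritin heavy chain, the subunit with the ferroxidase site that oxidizes iron for storage. Its signal was 2399 RPKM (5018 reads) and 702 RPKM (1148 reads) in WT libraries 1 and 2, against 1077 RPKM (3390 reads) and 1035 RPKM (2899 reads) in libraries 1 and 2 labelled eIF5A-KO. The 2 libraries labelled eIF5A-KO were close to each other and lay between the WT libraries, so the groups overlapped. The WT mean was 1551 ± 1200 RPKM (SD, n = 2), against 1056 ± 30.3 RPKM (SD, n = 2) under the eIF5A-KO label. The log2 fold change on log2(RPKM + 1) was -0.30 with an SE of 0.78 (limma adjusted p = 0.913). Without WT library 1 it was 0.59 and without WT library 2 it was -1.18, and it was also above 0 when the libraries were quantile normalized (0.97), so no direction can be given for Fth1. Scaled to the same sum it was 0.78, which is -0.048 relative to the median of all genes, since that scaling moved the median to 0.83.

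Fth1 was among the most read coding genes everywhere. By RPKM it was first among protein-coding genes in WT library 1 and number 10 in WT library 2, against number 3 and number 5 under the eIF5A-KO label. Of the protein-coding reads, WT library 1 had 1.86% on Fth1 and WT library 2 had 0.527%, against 0.737% and 0.753% under the eIF5A-KO label. WT library 1 therefore stood apart for this gene by share as well as by RPKM. The WT libraries differed 3.42-fold in Fth1, a spread exceeded by 2.65% of 1512 other protein-coding genes with a mean of at least 50 reads, whereas the libraries labelled eIF5A-KO differed 1.04-fold, a spread exceeded by 89.8% of them. Hmox1, the next most read of the 8 genes, differed 1.36-fold between the WT libraries, with library 2 the higher.

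Ftl1 (ENSMUSG00000050708, chr7:45457944-45459884, minus strand) codes for the ferritin light chain, which has no ferroxidase site and helps the iron core to form. Its signal was 78.0 RPKM (63 reads) and 61.8 RPKM (39 reads) in the WT libraries, and 28.8 RPKM (35 reads) and 25.9 RPKM (28 reads) under the eIF5A-KO label. Both WT libraries were higher than both libraries labelled eIF5A-KO, with no overlap. The WT mean was 69.9 ± 11.5 RPKM (SD, n = 2), against 27.3 ± 2.07 RPKM (SD, n = 2) under the eIF5A-KO label, 2.56-fold lower. On log2(RPKM + 1) the fold change was -1.32 with an SE of 0.42. Ftl1 had the smallest unadjusted p of the 8 genes in limma (0.0201) and did not pass after adjustment over the tested genes (adjusted p = 0.660). The value was below 0 in all 17 alternatives, from -1.48 to -0.26. Without library 2 labelled eIF5A-KO the unadjusted limma p was 0.0602, with the remaining library of that label assumed to vary like the others. The unadjusted limma p was 0.733 when the libraries were scaled to the same sum, a scaling that moved the median of all genes to 0.83, and relative to that median Ftl1 stood at -1.09.

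Ftl1 is also the gene whose reads are hardest to place. Only 21 of its 522 coding windows of 28 bases (4.02%) occurred in no other annotated gene, and the shared windows fell in 35 other genes, led by Ftl1-ps1, Gm15590 and Ftl2-ps. Of the windows of Fth1, 383 of 519 (73.8%) were found in no other gene, and the rest fell in 3 other genes, Ftl1 not among them. In the other 6 iron genes every coding window was found in 1 gene. The heavy and light chain proteins were identical at 93 of 175 aligned residues (53.1%). How the counting treated reads with several origins is not given in the sources used here, so the level of Ftl1, and its level against Fth1, is uncertain.

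The rows of the ferritin copies held few reads. For Ftl1, 19 annotated copies with at least 80% identity held 8 reads over the 4 libraries against 165 on Ftl1 itself (4.85%), and Ftl1-ps1 was listed at 0 in all 4. The 8 reads fell on 5 copies, Gm6407, Gm7541, Gm7824, Ftl2-ps and Gm15580, with 1 or 2 reads each. For Fth1, 3 copies (Fth-ps3, Gm6977 and Fth-ps2) held 8 reads against 12455 on the parent gene (0.0642%). Adding the copies' reads to their parents left the group difference of the log2 ratio of Fth1 to Ftl1 at 0.96, against 1.02 without them. This sum cannot show reads that the counting may have left out of parents and copies alike.

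**Figure D3:**
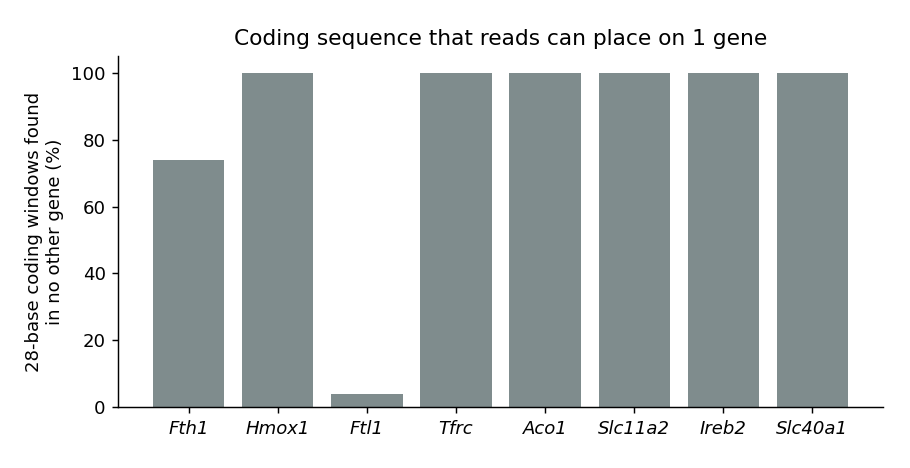
Share of the 28-base windows of each coding sequence that were found in no other annotated gene, in percent, for the 8 iron genes. The bar of Ftl1 reaches 4.02% and that of Fth1 73.8%, and the other 6 reach 100%.

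Iron uptake was read second. Tfrc (ENSMUSG00000022797, chr16:32608920-32632794, plus strand) codes for the receptor that brings iron-loaded transferrin into the cell. Its signal was 4.83 RPKM (18 reads) and 7.89 RPKM (23 reads) in the WT libraries, and 15.0 RPKM (84 reads) and 9.41 RPKM (47 reads) under the eIF5A-KO label. Both WT libraries were below both libraries labelled eIF5A-KO, although WT library 2 and library 2 labelled eIF5A-KO were near each other and their 95% counting intervals overlapped. The WT mean was 6.36 ± 2.17 RPKM (SD, n = 2), against 12.2 ± 3.94 RPKM (SD, n = 2) under the eIF5A-KO label, where it was 1.92-fold higher. Its log2 fold change of 0.84, with an SE of 0.44, did not pass the test (limma adjusted p = 0.680). Leaving out 1 library at a time moved it between 0.53 and 1.15. Library 1 labelled eIF5A-KO, the highest for Tfrc, was also the highest for the summed fibroblast markers (866 RPKM), and their part in the value of Tfrc was not tested.

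Slc11a2 (ENSMUSG00000023030, chr15:100387898-100425072, minus strand) codes for DMT1, which carries ferrous iron out of the endosome into the cytosol. Its signal was 6.53 RPKM (25 reads) and 2.67 RPKM (8 reads) in WT, against 6.42 RPKM (37 reads) and 8.96 RPKM (46 reads) under the eIF5A-KO label. WT library 2 was the lowest, and WT library 1 lay between the libraries labelled eIF5A-KO. The log2 fold change was 0.71 with an SE of 0.48 (limma adjusted p = 0.697), and without WT library 2 it was 0.19.

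Iron export was read from Slc40a1 (ENSMUSG00000025993, chr1:45908068-45926523, minus strand), which codes for ferroportin and was the weakest of the 8 genes. It had 2.76 RPKM (15 reads) and 0.708 RPKM (3 reads) in WT, and 1.72 RPKM (14 reads) and 0.550 RPKM (4 reads) under the eIF5A-KO label. In both groups library 1 was the higher, and the groups overlapped. The log2 fold change was -0.31 with an SE of 0.70 (limma adjusted p = 0.899), and it turned to 0.26 without WT library 1 and to 0.10 without library 2 labelled eIF5A-KO. With the libraries scaled to the same sum it was 0.18, but that scaling moved the median of all genes to 0.83, and relative to that median Slc40a1 stood at -0.65. These values rest on 3 to 15 reads in a library.

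The iron regulatory proteins were read next. Aco1 (ENSMUSG00000028405, chr4:40143081-40198338, plus strand), which is cytosolic aconitase with its cluster and an RNA-binding protein without it, had 6.27 RPKM (17 reads) and 8.97 RPKM (19 reads) in WT, against 9.81 RPKM (40 reads) and 9.64 RPKM (35 reads) under the eIF5A-KO label. The groups did not overlap, with both libraries labelled eIF5A-KO above both WT libraries, but WT library 2 was near them. Aco1 had a log2 fold change of 0.33 with an SE of 0.38 (limma adjusted p = 0.780), and without WT library 1 it was 0.11.

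Ireb2 (ENSMUSG00000032293, chr9:54863789-54912530, plus strand), which binds the same hairpins and is removed by the ubiquitin ligase of Fbxl5 when iron is plentiful, had 5.07 RPKM (29 reads) and 3.13 RPKM (14 reads) in WT. Under the eIF5A-KO label it had 6.28 RPKM (54 reads) and 5.49 RPKM (42 reads), again above both WT libraries. Ireb2 had a log2 fold change of 0.46 with an SE of 0.39 (limma adjusted p = 0.727), and without WT library 2 it was 0.18. The proteins of Aco1 and Ireb2 were identical at 552 of 885 aligned residues (62.4%), and every coding window of 28 bases was found in 1 gene for both, so their reads could be told apart. Only 2 of the 8 genes overlapped other genes of the table in their span, Ftl1 with Gm10252 (2 reads in all) and Gm22133 (0 reads) and Slc11a2 with Gm5475 (1 read).

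Hmox1 (ENSMUSG00000005413, chr8:75093621-75100589, plus strand) opens the heme ring and frees its iron. Its signal was 356 RPKM (376 reads) and 486 RPKM (401 reads) in WT, and 519 RPKM (825 reads) and 475 RPKM (672 reads) under the eIF5A-KO label. WT library 1 was the lowest, and the other 3 libraries lay within the range from 475 to 519 RPKM, so the groups overlapped. The WT mean was 421 ± 91.8 RPKM (SD, n = 2), against 497 ± 31.3 RPKM (SD, n = 2), with a log2 fold change of 0.26, an SE of 0.54 and a limma adjusted p of 0.886. The log2 fold change was 0.031 without WT library 1 and 1.22 with quantile normalization, where the adjusted p of limma was 0.672. Among protein-coding genes Hmox1 stood between number 11 and number 15 by RPKM in all 4 libraries.

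Across the set, none of the 8 genes passed an adjusted p under 0.05 in limma, against 12 of 11363 tested genes (0.106%), and none passed in limma-voom on the recovered reads, against 0.695%. None of those 12 genes was protein-coding (0% of 9877). At an unadjusted p under 0.05 the limma fit held 1 of the 8 genes, Ftl1, against 7.32% of all tested genes (4.46% with the lower value under the eIF5A-KO label) and 5.97% of the protein-coding ones. The groups did not overlap for 4 of the 8 genes, Ftl1 lower and Tfrc, Aco1 and Ireb2 higher under the eIF5A-KO label, against 40.4% of all tested genes (20.3% lower, 20.1% higher) and 41.7% of the protein-coding ones. With 4 in 8, this count is near that background. The log2 fold change was above 0 for 5 and below 0 for 3 of the 8 genes, against 50% of all tested genes and 53.1% of the protein-coding ones above 0, with a median of 0.29, beside 0.05 for all tested protein-coding genes.

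**Figure D4:**
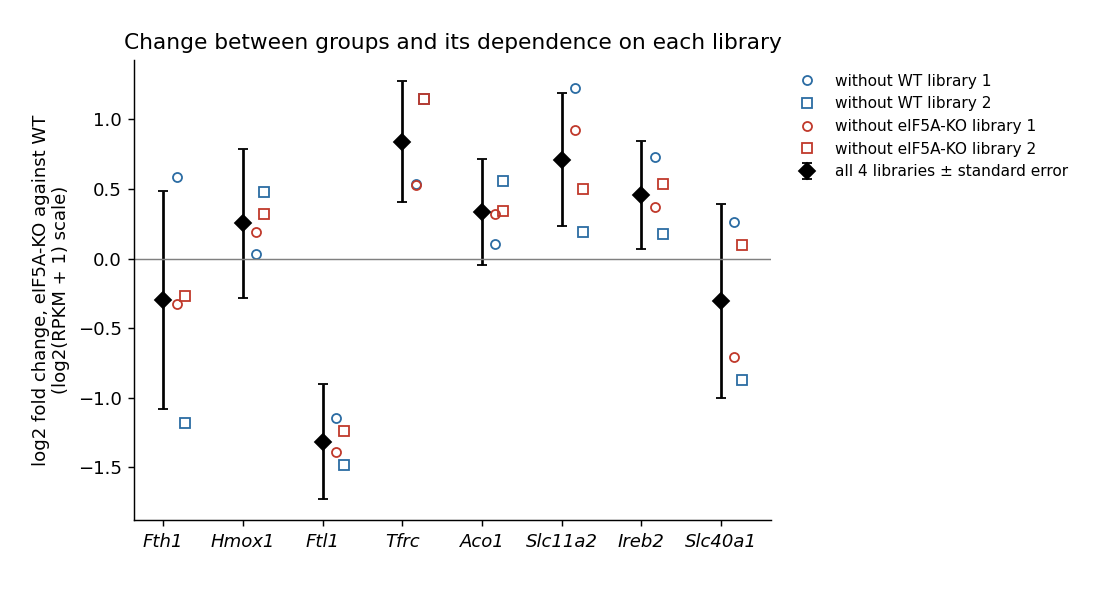
Log2 fold change of the 8 iron genes between libraries labelled eIF5A-KO and WT on log2(RPKM + 1); black diamonds with bars are the limma estimate from all 4 libraries and its standard error, and open symbols are the estimates with 1 library left out. Ftl1 stays between -1.48 and -1.15 and Tfrc between 0.53 and 1.15, whereas Fth1 runs from -1.18 to 0.59.

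Because ferritin and the transferrin receptor answer iron in opposite ways, their ratio within a library was compared, which apart from the added 1 does not depend on the scaling of the library. Ftl1 exceeded Tfrc 16.2-fold and 7.83-fold in the WT libraries and 1.92-fold and 2.75-fold under the eIF5A-KO label. Folds of these ratios are given on RPKM as deposited, and log2 ratios on RPKM to which 1 was added. The groups did not overlap, and the log2 ratio of Tfrc to Ftl1 was higher by 2.16 under the eIF5A-KO label, with 1.69 to 2.63 when 1 library was left out. The exact two-sided permutation test gave p = 0.333, the smallest value that 2 against 2 libraries allow, and 0.667 after Benjamini-Hochberg adjustment over the 4 ratios examined. The uncertainty in the reads of Ftl1 enters this ratio in full.

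The same ratio with the heavy chain did not separate the groups. Fth1 exceeded Tfrc 497-fold in WT library 1 and 89.0-fold in WT library 2, and 72.0-fold and 110-fold under the eIF5A-KO label. WT library 2 lay among the libraries labelled eIF5A-KO, and the mean difference of 1.14 in the log2 ratio of Tfrc to Fth1 (exact permutation p = 0.667, adjusted 0.889) was -0.051 without WT library 1.

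The subunits of ferritin were then set against each other, since a ferritin shell mixes both. Fth1 exceeded Ftl1 30.8-fold and 11.4-fold in WT and 37.4-fold and 40.0-fold under the eIF5A-KO label. The groups did not overlap, with a log2 difference of 1.02 (exact permutation p = 0.333, adjusted 0.667), but without WT library 2 the difference was 0.30. Among the iron regulatory proteins, the log2 ratio of Ireb2 to Aco1 was -0.26 and -1.27 in WT and -0.57 and -0.71 under the eIF5A-KO label. The latter fell inside the range of WT, and the difference of 0.12 (exact permutation p = 1) was -0.38 without WT library 2.

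**Figure D5:**
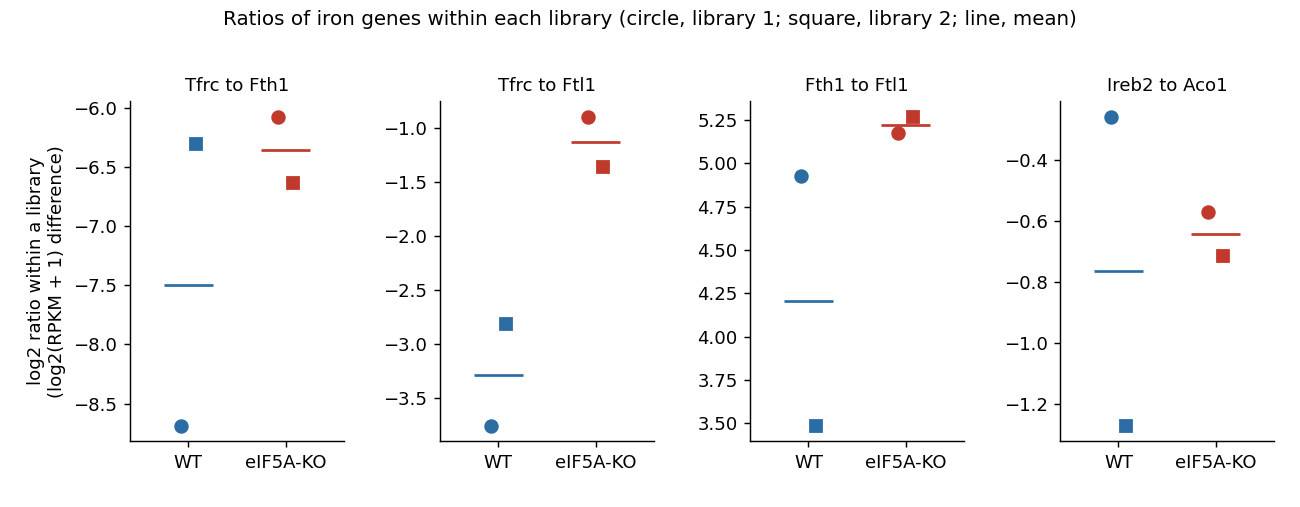
Log2 ratio of 2 iron genes within each library, on RPKM to which 1 was added, for Tfrc to Fth1, Tfrc to Ftl1, Fth1 to Ftl1 and Ireb2 to Aco1; blue is WT, red is the libraries labelled eIF5A-KO, circles and squares are libraries 1 and 2, lines are means, and each panel has its own vertical axis. The groups are apart for Tfrc to Ftl1 and Fth1 to Ftl1 and overlap for Tfrc to Fth1 and Ireb2 to Aco1.

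Other mRNAs listed for iron-responsive elements are described by their values. Alas2, the first enzyme of heme synthesis in red cell precursors, had 3.45 RPKM (5 reads) and 11.5 RPKM (13 reads) in WT, against 2.75 RPKM (6 reads) and 0.515 RPKM (1 read) under the eIF5A-KO label. The groups did not overlap, and its log2 fold change of -1.64, with an SE of 0.69, did not pass the test (limma adjusted p = 0.675). The summed signal of 7 erythroid markers moved with it, at 47.0 and 101 RPKM in WT, against 30.6 and 23.6 RPKM under the eIF5A-KO label, with Slc4a1 at 0 in all 4. The part of other cells in the value of Alas2 was not tested. Epas1, a hypoxia-inducible transcription factor and listed for an element in the 5′ UTR, had 31.8 and 17.8 RPKM in WT, against 18.9 and 16.4 RPKM under the eIF5A-KO label. Pfn2, an actin-binding profilin, had 5.62 and 7.79 RPKM in WT, against 7.16 and 9.79 RPKM under the eIF5A-KO label.

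The annotation search gave a grouping that did not use what is known of each gene. Of the 31 genes with the hairpin in a 5′ UTR, 21 were tested, with 9 above and 12 below 0 and a median log2 fold change of -0.31. Of the 129 genes with it in a 3′ UTR, 76 were tested, with 41 above and 35 below 0 and a median of 0.04. At an unadjusted p under 0.05 the first group held 1 gene, Ftl1, and the second held 2 higher and 2 lower genes, against 7.32% of all tested genes. Among the genes with the hairpin in a 5′ UTR the groups did not overlap for 7 lower genes, against 20.3% of all tested genes, and for 4 higher genes, against 20.1%. Among those with it in a 3′ UTR they did not overlap for 17 lower and 16 higher of the 76 genes.

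The rest of iron metabolism was described by lists. Of 85 other iron genes in 9 lists, 71 were tested, and 40 had a log2 fold change above 0 and 31 below, with a median of 0.11. None passed at an adjusted p under 0.05 in limma, and 1 gene in each direction had an unadjusted p under 0.05, which is 2 of 71 against 7.32% of all tested genes. The lower one was Slc25a37 (mitoferrin-1, which brings iron into mitochondria), with 7.16 and 9.17 RPKM in WT, against 2.75 and 2.26 RPKM under the eIF5A-KO label, a log2 fold change of -1.38 with an SE of 0.37 (limma adjusted p = 0.629). The higher one was Steap1, of a family of membrane metalloreductases, with 7.23 and 15.4 RPKM in WT, against 24.0 and 30.6 RPKM under the eIF5A-KO label, a log2 fold change of 1.27 with an SE of 0.48 (limma adjusted p = 0.672). In both genes the groups did not overlap.

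The lists by role had these counts. Of 10 tested genes of iron uptake, reduction and export, 7 were above 0 and 3 below, with a median of 0.45, and its gene of highest RPKM was the heme transporter Slc48a1 (68.1 and 79.5 RPKM in WT against 43.3 and 66.6 RPKM). Of 12 tested genes of heme synthesis and breakdown, 6 were above and 6 below 0, with Blvrb, a biliverdin reductase, the highest by RPKM (55.5 and 141 RPKM in WT against 104 and 118 RPKM). Of 13 regulators of Hmox1 and targets of NRF2, the transcription factor of the oxidant response, 7 were above and 6 below 0, with a median of 0.07. Srxn1, which repairs oxidized peroxiredoxins, had the highest RPKM of that list, at 111 and 241 RPKM in WT, against 92.7 and 189 RPKM under the eIF5A-KO label. In Blvrb and Srxn1 the groups overlapped, and in Slc48a1 they did not.

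The lists of iron-sulfur and ferritin handling followed. Of 15 tested genes of mitochondrial iron import and iron-sulfur assembly 9 were above 0 and 6 below, with a median of 0.07, and Hspa9, a mitochondrial chaperone of cluster transfer, was the highest by RPKM and did not overlap (49.3 and 45.8 RPKM in WT against 100.3 and 73.5 RPKM, limma adjusted p = 0.680). Of 9 genes of cytosolic iron-sulfur assembly 5 were above 0 and 4 below, led by Ciao1 (11.4 and 12.6 RPKM in WT against 14.8 and 17.4 RPKM). The list of the turnover of iron regulatory proteins had 3 above and 2 below 0, led by Skp1a, and Fbxl5 of that list overlapped between groups. Of the 3 tested genes of ferritin loading and turnover 1 was above and 2 below 0. Pcbp1, a chaperone that hands iron to ferritin, led it with 102 and 158 RPKM in WT, against 117 and 126 RPKM under the eIF5A-KO label.

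Features of the coding sequences were compared because eIF5A is known for helping ribosomes through runs of proline. The longest run of prolines was 1 or 2 residues in each of the 8 proteins, whereas 19.9% of 21673 protein-coding genes have a run of 3 or more. Coding GC content ran from 41.7% in Tfrc and 42.3% in Ireb2 to 56.4% in Hmox1 and 58.7% in Ftl1, around a median of 51.8% over all coding genes. After the trend on coding GC was taken out, Tfrc stood at a log2 fold change of 0.47 and Ftl1 at -1.08, and Ireb2, with its low GC, at 0.09, all with the same sign as before.

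The genes most like the iron genes over the 4 libraries were ranked by the root mean square difference of their centred log2(RPKM + 1), among protein-coding genes with a mean of at least 50 reads. With 4 points this likeness describes these libraries and is no sign of shared control. For Fth1 the nearest was Cebpd at 0.08, with 46.1 and 13.6 RPKM in WT, against 23.5 and 20.5 RPKM under the eIF5A-KO label, then Kat6a and Tnrc18 at 0.12 and 0.13. For Ftl1 it was Ltbp3 at 0.05, with 17.01 and 12.2 RPKM in WT, against 5.47 and 5.05 RPKM under the eIF5A-KO label, then Aff4 and Plxna1. For Tfrc it was Ppia at 0.03, with 14.7 and 22.4 RPKM in WT, against 40.9 and 25.4 RPKM under the eIF5A-KO label, then Hspd1 and Gja1. For Hmox1 it was Ube2d3 at 0.03, then 1810013L24Rik and Ppp1cb. Fth1 thus shared with Cebpd the high WT library 1, and Tfrc shared with Ppia the high library 1 labelled eIF5A-KO.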

How the data were processed

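Ribosome-protected fragments were sequenced from 2 WT libraries and 2 libraries labelled eIF5A-KO. Per the study's methods and the submitters' processing notes, low-quality, rRNA and tRNA reads were removed, reads were mapped to mm10 with TopHat2 and genes were counted with HTSeq. The deposited values are RPKM computed by the authors for each library, beside a gene length in bases. Counting rules, strand included, are not given in the sources used here. RPKM times gene length gave whole multiples of a step for 100% of values above 0 (tolerance 0.01), and reads were recovered from it. Although titled Polysome-Seq, the protocol is that of ribosome profiling. Translation efficiency was not computed, as no RNA abundance was analysed here.

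limma 3.58.1 in R 4.3.3 (eBayes with trend) was run on log2(RPKM + 1) for the 11363 genes averaging 1 RPKM or more, with Benjamini-Hochberg adjustment over them. This scale understates changes of weakly read genes. Ratios were compared by exact two-sided permutation. Of the table's identifiers 99.8% matched GENCODE M21 (GRCm38), 99.6% of them at the same coordinates. That annotation gave UTRs, coding sequences, 28-base windows and, with blastn 2.17.0, ferritin copies. Copies had at least 80% identity over at least 200 bases. The limma step was run on simulated data whose spread between libraries was set, so that run does not bear on the spread between these libraries. Alternatives were another pseudocount, filters, scalings, limma-voom, coding GC, a replicate block and leaving out each library.

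The 8 genes and the lists were chosen with earlier results of these data known. Named besides them were iron genes at an unadjusted p under 0.05, the gene of highest RPKM in each list, the 3 most similar genes for Fth1, Ftl1, Tfrc and Hmox1, ferritin copies with reads, and Eif5a. Alas2, Myod1, Fbxl5 and the overlapping genes were named after their values were seen. Summaries of the lists of 5′ and 3′ element mRNAs are not reported here. Intervals and read counts cover counting error only, since PCR copies are not independent molecules.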

Additional observations from a re-analysis of the deposited data

How the results depend on the processing

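Of the 8 iron genes, none passed an adjusted p under 0.05 in any of the alternatives tried (lowest 0.248, Ftl1 in limma-voom). Ftl1 was below 0 and Tfrc, Slc11a2, Aco1, Ireb2 and Hmox1 above 0 in each of theirs. Fth1 turned to 0.78 with the same sum of RPKM and to 0.97 with quantile normalization. Slc40a1 turned to 0.18 with the same sum of RPKM. That scaling moved the median of all genes to 0.83, and relative to it Fth1 stood at -0.048 and Slc40a1 at -0.65. With 1 library left out, Fth1 ran from -1.18 to 0.59 and Slc40a1 from -0.88 to 0.26, and the log2 ratio of Tfrc to Fth1 ran from -0.051 to 2.33 and that of Ireb2 to Aco1 from -0.38 to 0.63. A minimum mean of 5 RPKM removed Slc40a1 and Ireb2. At an unadjusted p under 0.05, the same sum of RPKM left 0 lower iron genes and 1 higher (Tfrc), quantile normalization gave 1 higher (Hmox1), and leaving out 1 library gave 0 to 1 lower, with 0 without library 2 labelled eIF5A-KO. Per coding kilobase 5 of the 8 places in the order by level were kept. The cause of these shifts was not tested.

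Over all genes, the 11 lower and 1 higher call at an adjusted p under 0.05 in limma became 0 and 0 with no filter beyond a value above 0, a pseudocount of 0.1, no trend, a minimum mean of 5 RPKM, protein-coding genes only, the coding GC trend removed, and with any 1 library left out (range 0 to 0), while at an unadjusted p under 0.05 these fits called 225 to 791 genes lower and 178 to 809 higher. The same sum of RPKM gave 7 higher, and limma-voom 78 lower. With unadjusted p the same sum called 99 genes lower and 1635 higher, a split set by the shift of 0.83 in the median of all genes.

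Replicate numbers are shared between groups, but same-numbered libraries hardly deviated together (correlation 0.06 over 11363 genes), and they share only a number. With the replicate block limma made 0 lower and 0 higher calls (509 and 318 at an unadjusted p under 0.05) and left Ftl1 at -1.32 (adjusted p = 0.667). The replicate block with the coding GC trend removed gave 40 lower and 52 higher calls, none of them among the 8 genes. Slc40a1 had 3 to 15 reads a library.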
